A study of Mus musculus with 9 samples.

Results

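The cells described here are lining synovial fibroblasts, the fibroblast-like synoviocytes (FLS) of the mouse joint, picked out cell by cell with a fixed gate on 9 genes. A barcode was kept when it held at least 500 genes, at least 1000 unique molecular identifiers (UMIs, one per captured transcript) and at most 10% mitochondrial UMIs. A kept cell was counted as a lining fibroblast when *Prg4* made up at least 20 of every 10000 UMIs, when *Clic5* and *Tspan15* together had at least 2 UMIs, when *Thy1* and *Ptprc* had none, and when fewer than 2 of the 4 cartilage genes *Cytl1*, *Snorc*, *Chad* and *Matn3* were detected. The gate selected 638 of 4788 kept cells (13.3%) from 9 libraries. Of these 638 cells, 585 came from Tom+ libraries and 53 from Tom-GFP+ libraries. Measured values chose these cells, so levels of the 9 gate genes are given as a description and were not tested.

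All libraries came from synovial joints of *Gdf5-Cre;Tom;Pdgfrα-H2BGFP* mice aged 11 to 12 weeks, profiled by droplet single-cell RNA-seq of transcript 5′ ends. In these mice *Gdf5-Cre*, active in the embryonic joint interzone, leaves a permanent tdTomato (Tom) label in the descendants of interzone cells, and the *Pdgfrα* promoter drives nuclear GFP in fibroblasts and progenitors. Live cells were sorted after collagenase digestion into Tom+ cells of the *Gdf5* lineage and Tom-GFP+ cells, which express *Pdgfrα* but lack the lineage label. Naive mice (steady state) gave 2 Tom+ libraries and 1 Tom-GFP+ library, and mice with a scratch through the full cartilage thickness of the trochlear groove, taken 6 days after surgery (injured), gave 4 Tom+ and 2 Tom-GFP+ libraries. Every library therefore carried both reporters and the Cre driver, and the injury could not be told apart from the arthrotomy that exposed the cartilage. Within that age range the steady-state mice were described as the younger, so age cannot be told apart from state either. The 9 libraries held 5161 barcodes and between 2866464 and 15033902 UMIs each, and no pair of libraries shared more than 2 barcodes. In Tom-GFP+ injured replicate 2, 147 of 424 barcodes failed the filter, and the 90th percentile of the mitochondrial share over its barcodes was 82.3%. The gene list followed an older format in the 3 steady-state libraries and Tom+ injured replicate 1 and a newer one in the other 5.

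The synovial lining is a thin cell layer facing the joint cavity, made of macrophages and of fibroblasts that lack Thy1, while Thy1+ fibroblasts fill the sublining beneath. Lining fibroblasts secrete lubricin, the heavily glycosylated product of *Prg4*, and hyaluronan, the large sugar polymer of synovial fluid, and together these coat and lubricate cartilage. *Clic5* encodes an intracellular chloride channel family protein that links membrane to the actin cortex, and *Tspan15* a tetraspanin that partners the sheddase ADAM10.

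Lining fibroblasts were a small share of steady-state cells and a larger share of injured ones. In steady state they made up 20 of 331 kept cells (6.04%) in Tom+ replicate 1, 30 of 544 (5.51%) in Tom+ replicate 2 and 2 of 410 (0.488%, 95% exact binomial interval 0.0591 to 1.75%) in the Tom-GFP+ library. In the injured Tom+ libraries the counts were 101 of 759 cells (13.3%), 179 of 826 (21.7%), 144 of 518 (27.8%) and 111 of 620 (17.9%) in replicates 1 to 4. In the injured Tom-GFP+ libraries they were 20 of 503 (3.98%) and 31 of 277 (11.2%). Each injured Tom+ library lay above both steady-state ones, and the range of the injured Tom-GFP+ pair overlapped the Tom+ steady-state values. Group means were 5.78% ± 0.373 (SD, n = 2) for Tom+ steady state, 20.2% ± 6.13 (SD, n = 4) for Tom+ injured and 7.58% ± 5.10 (SD, n = 2) for Tom-GFP+ injured.

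Averaged over the 2 lineages, the share was 10.7 percentage points higher in injured than in steady-state libraries (two-sided exact permutation test within lineage over 45 relabellings, p = 0.0444, smallest possible 0.0222). Averaged over the 2 states, it was 8.94 points higher in Tom+ than in Tom-GFP+ libraries (two-sided exact permutation test within state, p = 0.0222, the smallest possible). Within the Tom+ libraries alone the injury difference was 14.4 points, with p = 0.0667 by exact permutation, the smallest that 2 against 4 libraries allow. Injured libraries held more UMIs per kept cell (median 12223 to 18567, against 8050.5 to 8647 in steady state). A cell with more UMIs passes a rule of at least 2 UMIs more easily. Thinning to 5000 UMIs left out the cells below that depth, unevenly between states: 53 of 331, 96 of 544 and 74 of 410 in steady-state libraries, 17 of 759, 35 of 826, 35 of 518 and 43 of 620 in Tom+ injured and 87 of 503 and 20 of 277 in Tom-GFP+ injured libraries. Of the remaining cells, each thinned to 5000 UMIs, the shares were 5.76 and 4.91% in Tom+ steady state, 0.595% in Tom-GFP+ steady state, 10.4, 17.7, 26.3 and 16.6% in Tom+ injured, and 4.33 and 10.9% in Tom-GFP+ injured libraries. The thinned injury difference was 9.72 points (exact permutation p = 0.0667) and the thinned lineage difference 7.44 points (exact permutation p = 0.0444). Leaving out any 1 of the 3 steady-state or 4 Tom+ injured libraries took the injury p to between 0.0667 and 0.133, with differences of 9.47 to 14.4 points. The lineage p reached 0.0667 or 0.133 without either Tom+ steady-state library or any of the 3 Tom-GFP+ libraries.

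**Figure D1:**
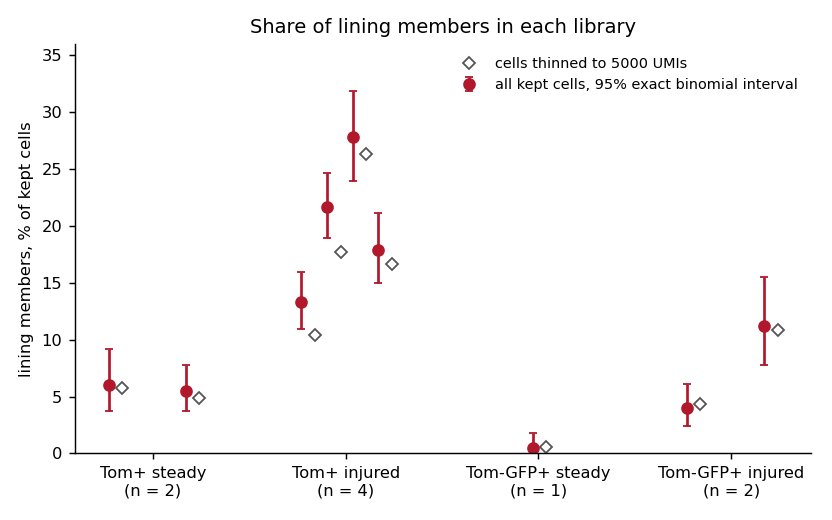
Share of kept cells inside the lining gate (y axis, %) in each library, by lineage and state (x axis); each filled point is 1 library with its 95% exact binomial interval (counting error only), and the open diamond beside it is the share among the cells with at least 5000 UMIs, each thinned to that number. The 4 injured Tom+ libraries lie between 13.3 and 27.8%, above both steady-state Tom+ libraries at 5.51 and 6.04%, and the steady-state Tom-GFP+ library is lowest at 0.488%.

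The gate genes showed how far the selected cells stood from its limits. *Prg4* (chr1:150449412-150466165, minus strand, GRCm38.p6) had a median of 374 UMIs per 10000 in lining fibroblasts, with a lowest value of 25.1 and a highest of 1216. Summed over the lining fibroblasts of a library, *Prg4* took 2.38 to 4.64% of all UMIs. With mitochondrial genes, ribosomal protein genes and unnamed gene models left out, *Prg4* was the most abundant gene there, at a mean of 37807 CPM over 9 libraries. CPM are UMIs of a gene scaled to a class total of 1000000. Counting of 5′ ends gives about 1 UMI per captured transcript whatever its length, so CPM values are comparable between genes up to differences in capture. *Clic5* and *Tspan15* together had a median of 15 UMIs per cell, 95.6% of the cells had a *Clic5* UMI and 95.8% a *Tspan15* UMI. Just inside the limit, 32 cells had exactly 2 UMIs of this pair, with a median *Prg4* of 221 per 10000. Just outside, 81 cells had 1 UMI (median *Prg4* 131 per 10000) and 263 had none (median 48.0). Only 13 cells failed on *Prg4* alone, the highest of them at 15.5 per 10000. A further 38 failed on *Thy1* alone, 24 of them with a single *Thy1* UMI.

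The label was next set beside genes that the gate had not used. The 10 lining genes below were chosen with knowledge of lining biology and of these data. Their detection is therefore no independent evidence for the label. In lining fibroblasts thinned to 5000 UMIs per cell, a median of 8 of the 10 genes *Itga6*, *Htra4*, *Hbegf*, *Has1*, *Cd55*, *Cd44*, *Col22a1*, *Creb5*, *Sox5* and *Foxo1* were detected. At the same depth the median was 2 in Thy1+ cells, 2 in *Prg4*+ cells without *Clic5* or *Tspan15* and 1 in *Ptprc*+ cells. At least 5 of the 10 were detected in 94.8% of 629 lining fibroblasts, against 1.61% of 2045 Thy1+ cells. The share was 14.7% of 429 *Prg4*+ cells without *Clic5* or *Tspan15* and 8.62% of 116 cells with at least 2 of the cartilage genes. The marker genes given with the label, *Itga6* and *Htra4*, were detected at this depth in 42.0% and 94.0% of lining fibroblasts and in 2.54% and 8.70% of Thy1+ cells. In *Prg4*+ cells without *Clic5* or *Tspan15* they were detected in 4.66% and 35.9%. Without thinning, the median number detected was 10 in lining fibroblasts, whose median depth was 17475.5 UMIs, and 3 in Thy1+ cells. Immune and endothelial transcripts were near zero. *Pecam1*, an endothelial adhesion molecule, was detected in 0 of 629 thinned cells, and *Lyz2*, the myeloid lysozyme, in 5.41%, against 94.7% of *Ptprc*+ cells and 6.41% of Thy1+ cells.

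Lining fibroblasts were compared with all other kept cells and with 2 defined groups of cells from the same libraries. Thy1+ fibroblasts were defined by at least 1 *Thy1* UMI, no *Ptprc* UMI, *Prg4* below 20 per 10000 and fewer than 2 of the cartilage genes (2170 cells). *Prg4*+-only cells had *Prg4* of at least 5 per 10000 but no UMI of *Clic5*, *Tspan15*, *Thy1* or *Ptprc* and fewer than 2 of the cartilage genes (489 cells). UMIs were summed per library and class and tested with edgeR with the library as a block, in the 8 libraries with at least 10 cells of each class. The Tom-GFP+ steady-state library, with 2 lining fibroblasts, did not enter. The 9 gate genes were left out of the tests. Adjusted p-values are Benjamini-Hochberg values over all genes tested, and a gene passed below 0.05. Against all other kept cells, 1838 of 10274 genes were higher (17.9%) and 2132 lower (20.8%) in lining fibroblasts, 38.6% in all. For 27.1% of the genes the classes differed in the same direction within each of the 8 libraries. *F13a1* and *Gpr1* were among the genes furthest above the other cells, with log2 differences of 4.54 and 4.61, and *Apoe*, a lipid carrier, among those furthest below, at 6.59 against 665 CPM. Against Thy1+ fibroblasts, 1799 of 9647 genes were higher (18.6%) and 2003 lower (20.8%), 39.4% in all, with a median log2 fold change over all genes of -0.02. The list counts against Thy1+ fibroblasts that follow are to be read beside these shares.

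Of the 12 lining genes outside the gate, 10 were higher in lining than in Thy1+ fibroblasts, *Vcam1* was lower and *Pdpn* did not pass, with a list median log2 fold change of 2.92. This list was drawn up with knowledge of lining biology and of these data, so its direction is no independent evidence. *Col22a1* (chr15:71795795-72034227, minus strand), a collagen placed at tissue junctions, measured 448 and 316 CPM in Tom+ steady-state, 576, 732, 633 and 526 in Tom+ injured and 509 and 585 in Tom-GFP+ injured lining fibroblasts. In the Thy1+ fibroblasts of the same libraries it was 0 in both steady-state libraries and between 0.660 and 4.98 CPM in the 6 injured ones. The difference was 7.90 on the log2 scale (SE 0.26, adjusted p = 1.25e-10, edgeR, higher in 8 of 8 libraries). The classes did not overlap. A difference in the same direction within each of the 8 libraries was found for 28.1% of all genes tested.

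*Htra4* (chr8:25024929-25038962, minus strand), a secreted serine protease of the HtrA family, measured 1028 and 1430.1 CPM in Tom+ steady-state, 1407, 1145, 1786 and 1813 in Tom+ injured and 1879 and 2092 in Tom-GFP+ injured lining fibroblasts. Thy1+ fibroblasts had a mean of 27.6 ± 13.6 CPM (SD, n = 8), and the log2 difference was 5.81 (SE 0.30, edgeR adjusted p = 5.67e-09). *Itga6* (chr2:71745616-71858416, plus strand), the alpha-6 integrin subunit that binds laminin, measured 219 and 186 CPM in Tom+ steady-state, 101, 92.2, 106 and 133 in Tom+ injured and 100.4 and 129 in Tom-GFP+ injured lining fibroblasts. Its mean in Thy1+ fibroblasts was 4.50 ± 2.58 CPM, and the log2 difference was 4.67 (SE 0.21, edgeR adjusted p = 1.38e-09). Both genes were separated without overlap in all 8 libraries.

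Genes of hyaluronan metabolism fell on both sides. Of 15 listed, 12 were tested, 7 were higher in lining fibroblasts, 2 lower and 3 did not pass (list median 0.85). *Has1*, a hyaluronan synthase, averaged 745 ± 263 CPM in lining and 132 ± 81.8 in Thy1+ fibroblasts (SD, n = 8, log2 difference 2.54, edgeR adjusted p = 3.82e-07). The enzymes that make its sugar precursor were also higher, with *Ugp2* at 902 ± 217 against 225 ± 44.2 CPM and *Ugdh* higher by 1.16 on the log2 scale (edgeR adjusted p = 8.06e-05). *Has2*, the other expressed synthase, was lower at 2.36 ± 2.09 against 20.8 ± 7.69 CPM, as was *Vcan*, a hyaluronan-binding proteoglycan, at 27.7 ± 24.0 against 259 ± 119 CPM. The cell surface hyaluronan receptor *Cd44* was 0.62 higher (edgeR adjusted p = 0.0146, and 0.145 without the library as a block).

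Lubricin carries dense O-linked sugars, and the enzymes that add them did not move as a block. Of 14 tested, 4 were higher, 5 lower and 5 did not pass. *Galnt7*, one of the transferases that start or extend these chains, was higher at 67.5 ± 22.0 against 7.35 ± 2.12 CPM, while *Galnt16* was lower at 3.51 ± 4.18 against 36.2 ± 6.22 CPM. Of 20 genes for folding and export through the endoplasmic reticulum, none was higher and 13 were lower, by small amounts. The list median was -0.40, with *Manf*, a stress-induced secreted factor of that compartment, at a log2 difference of -0.68.

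Fibrillar matrix genes were mostly lower. Of 20 genes for fibrillar collagens, small proteoglycans and elastic fibres, 19 were lower in lining fibroblasts, none was higher, and *Loxl2* did not pass (list median -2.20). This fit averages over states. In Tom+ steady-state libraries *Bgn*, one of the 19, was higher in lining than in Thy1+ fibroblasts, at 3557 ± 810 against 2121 ± 152 CPM. In Tom+ injured libraries it was lower, at 3026 ± 372 against 5539 ± 1262 CPM. Means of *Col1a1*, *Dcn* and *Fbln1* were lower in lining fibroblasts in both states. *Lum*, the keratan sulphate proteoglycan lumican, averaged 133 ± 85.3 CPM against 2554 ± 951 in Thy1+ fibroblasts, and *Postn*, the matricellular protein periostin, 21.2 ± 13.6 against 1283 ± 732 CPM. Of 18 sublining markers, 14 were lower and none was higher. *Pi16* and *Col14a1*, markers of adventitial fibroblasts, had log2 differences of -7.48 and -6.09. *Pdgfra*, the receptor gene whose promoter drives the GFP reporter, did not pass in this fit (log2 difference -0.43, edgeR adjusted p = 0.0623). In Tom+ steady-state libraries it averaged 173 ± 9.95 CPM in lining and 370 ± 59.6 CPM in Thy1+ fibroblasts. In Tom+ injured libraries the means were 161 ± 15.1 and 160 ± 39.2 CPM. *Fn1*, the gene of the matrix glycoprotein fibronectin and not in the fibrillar list, was 2.21 higher in lining fibroblasts (edgeR adjusted p = 4.97e-10) and at a mean of 14718 CPM over 9 libraries was among their most abundant transcripts.

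A list of basement membrane genes and other collagens split, with 4 of 20 tested higher, 13 lower and 3 not passing. The 4 higher were *Col22a1*, the laminin chain *Lama5* and the collagen IV chains *Col4a1* and *Col4a2*, the last 2 by 0.93 and 1.17 on the log2 scale. Among adhesion genes 6 of 17 were higher and 6 lower. *Itgb8*, an integrin subunit that activates latent TGF-beta, averaged 50.2 ± 12.6 against 3.19 ± 1.40 CPM, and *Cdh11*, the cadherin known for holding the lining layer together, was lower at 1.63 ± 2.10 against 44.3 ± 16.0 CPM.

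Ligands of the epidermal growth factor (EGF) receptor were higher in the lining. Of 7 EGF family genes tested, 6 were higher, none lower and *Erbb2* did not pass (list median 3.15, against -0.02 for all genes). *Hbegf*, heparin-binding EGF, measured 842 and 1152 CPM in Tom+ steady-state, 1628, 2685, 2681 and 2407 in Tom+ injured and 2534 and 2588 in Tom-GFP+ injured lining fibroblasts. In Thy1+ fibroblasts it stayed between 2.35 and 51.4 CPM, for a log2 difference of 6.10 (SE 0.25, edgeR adjusted p = 7.69e-10). The lowest lining library was thus well above the highest Thy1+ one. The ligands *Areg* and *Btc* were higher by 4.87 and 3.87, and *Errfi1*, the cytoplasmic inhibitor induced by the active receptor, by 3.15 at 704 ± 249 against 70.4 ± 18.0 CPM. The receptor gene *Egfr* was higher by 0.76 (edgeR adjusted p = 1.45e-05).

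Complement and chemokine genes were lower in lining fibroblasts. Of 11 complement genes tested, 10 were lower and only *Cd55*, the decay-accelerating factor that blocks complement on the cell surface, was higher (list median -2.48). *C3*, the central component, averaged 3.96 ± 2.20 CPM in lining against 614 ± 273 in Thy1+ fibroblasts. *Cd55* averaged 263 ± 46.2 against 125 ± 84.4 CPM (log2 difference 1.20, edgeR adjusted p = 0.00511), higher in 7 of 8 libraries. In Tom+ steady-state replicate 1 it was 245 CPM in lining and 302 CPM in Thy1+ fibroblasts. Among 12 chemokine and cytokine genes tested, 8 were lower, *Tgfb1* was higher and 3 did not pass, with the chemokines *Ccl7* and *Ccl11* at log2 differences of -7.29 and -7.22.

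Of 19 matrix proteases and inhibitors tested, *Htra4*, *Htra1* and the collagen-degrading cathepsin *Ctsk* were higher, 10 were lower and 6 did not pass. The collagenase *Mmp13* and the stromelysin *Mmp3* were lower, *Mmp3* at 4.44 ± 4.86 against 397 ± 344 CPM. Of 8 Wnt genes tested, 7 were lower, among them the antagonists *Sfrp2* and *Sfrp4*, and *Rspo2*, which amplifies Wnt signalling, was higher by 2.57 (edgeR adjusted p = 8.05e-05). BMP and TGF-beta genes were mixed, with 4 of 18 higher, 7 lower and 7 not passing. Of all genes tested, 18.6% were higher and 20.8% lower. The ligands *Bmp6* and *Inhba* were higher by 3.42 and 2.59.

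Of 19 transcription factors tested, 6 were higher, 8 lower and 5 did not pass (list median -0.09). *Dlx3*, a homeobox factor, was higher by 5.01 at 91.0 ± 33.1 against 2.45 ± 1.38 CPM, *Sox5* by 3.55, *Foxo1* by 3.29 and *Sox6* by 2.74 on the log2 scale. *Creb5*, a leucine zipper factor of the CREB family, averaged 353 ± 91.2 against 89.9 ± 38.4 CPM (log2 difference 1.89, edgeR adjusted p = 3.74e-08). *Twist1*, a mesenchymal factor, had a log2 difference of -2.53 (edgeR adjusted p = 1.12e-07).

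**Figure D2:**
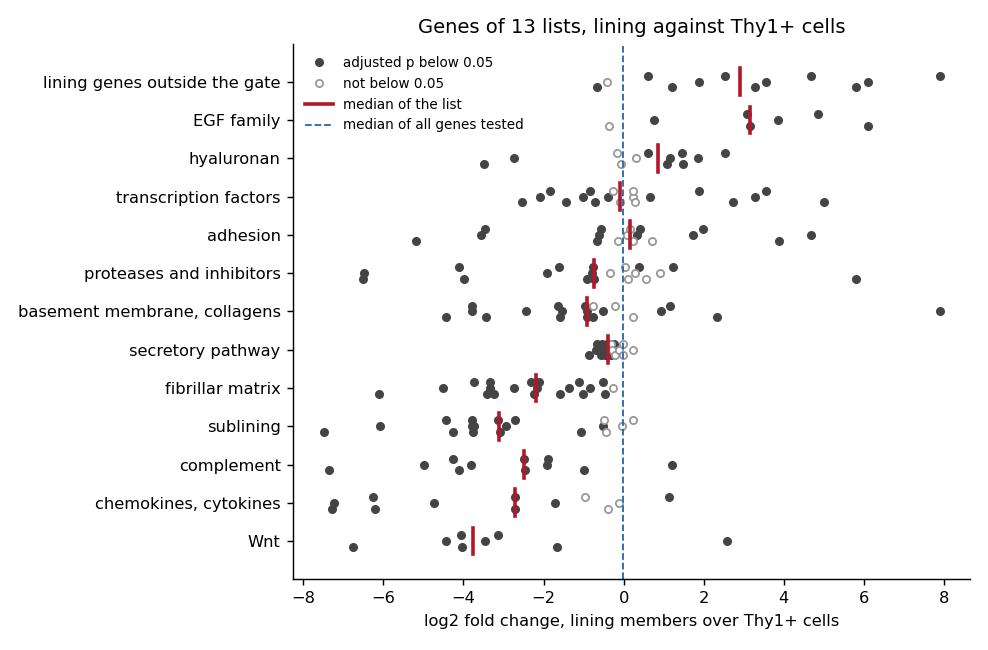
Log2 fold change of lining over Thy1+ fibroblasts (x axis) for the tested genes of 13 lists (y axis); each point is 1 gene over 8 libraries, filled where the adjusted p was below 0.05, with the list median as a red bar and the median of all genes tested as a dashed line. EGF family and lining genes lie to the right, with medians of 3.15 and 2.92, and fibrillar matrix genes lie to the left, with a median of -2.20.

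Outside the lists, the largest increases over Thy1+ fibroblasts among genes of at least 50 CPM in lining fibroblasts were in *F13a1*, *Rab37* and *Tmem196*. *F13a1*, the coagulation factor XIII transglutaminase, measured 693 and 768 CPM in Tom+ steady-state, 1159.5, 1619, 1228 and 1170.3 in Tom+ injured and 1078 and 1414 in Tom-GFP+ injured lining fibroblasts, and 4.12 ± 2.39 CPM in Thy1+ fibroblasts (log2 difference 8.05, edgeR adjusted p = 6.72e-11). Macrophages also express this gene. At 5000 UMIs per cell it was detected in 94.0% of lining fibroblasts and 54.4% of *Ptprc*+ cells. The summed CPM of 15 immune marker genes in lining fibroblasts was at most 40.7 in any library, and the part of macrophage RNA in the *F13a1* values was not tested. *Sema3a*, a secreted guidance cue, averaged 182 ± 30.7 against 2.02 ± 0.991 CPM. *Rgcc*, a regulator of cell cycle progression, averaged 3690.3 ± 809 against 98.4 ± 63.6 CPM. *Bglap2*, an osteocalcin gene, averaged 381 ± 164 against 9.87 ± 7.18 CPM, but it has near-identical neighbouring copies and its count is uncertain. Outside the lists, the largest decreases among genes of at least 50 CPM in Thy1+ fibroblasts were in *Cldn10*, *Apod*, *Myoc*, *C1qtnf3* and *Mfap4*, with log2 differences of -8.43 to -7.21.

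The promoters of 2 of these genes are shown because *Creb5*, raised in lining fibroblasts, belongs to a family that binds the cyclic AMP response element TGACGTCA, a sequence that reads the same on both strands. RefSeq promoter windows (250 bases before to 50 after the start, GRCm38.p6) were found for 10 genes, *Clic5*, *Tspan15*, *Has1*, *F13a1*, *Sema3a*, *Rgcc*, *Cd55*, *Foxo1*, *Sox5* and *Creb5*, with 12 windows in all. The genes were picked by hand, with the gate genes *Clic5* and *Tspan15* and with *Creb5* itself among them. Counts of windows with a sequence are therefore a description and not a test of enrichment. The element is present in 2 of the 12, against 588 of 32851 promoters (1.79%) of the whole table. These are *Has1* at chr17:17855139-17855438 on the minus strand and *Creb5* itself at chr6:53287053-53287352 on the plus strand, printed 5′ to 3′ with the element in capitals.
Has1: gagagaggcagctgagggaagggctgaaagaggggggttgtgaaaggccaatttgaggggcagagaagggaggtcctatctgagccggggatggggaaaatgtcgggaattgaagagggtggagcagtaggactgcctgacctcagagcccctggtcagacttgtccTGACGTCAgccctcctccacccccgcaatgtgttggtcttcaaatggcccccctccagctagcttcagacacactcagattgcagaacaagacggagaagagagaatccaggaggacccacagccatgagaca
Creb5: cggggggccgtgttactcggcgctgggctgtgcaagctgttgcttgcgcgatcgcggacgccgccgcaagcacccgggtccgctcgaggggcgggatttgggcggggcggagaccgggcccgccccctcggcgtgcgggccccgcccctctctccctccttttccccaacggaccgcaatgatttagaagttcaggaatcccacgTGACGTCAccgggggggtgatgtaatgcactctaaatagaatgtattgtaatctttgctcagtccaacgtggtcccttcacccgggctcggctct
The forkhead sequence GTAAACA and the SOX sequence AACAAT, both searched on both strands, are in 0 of the 12 windows and in 3.65% and 10.7% of all promoters. A match is a description of the letters in the window and not of a bound site.

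A further comparison was with the *Prg4*+-only cells. Against them, 780 of 5984 genes were higher (13%) and 862 lower (14.4%) in lining fibroblasts, 27.4% in all. For 20.4% the classes differed in the same direction within each of the 8 libraries. The median log2 fold change over all genes was -0.01. The same 12 lining genes gave 10 higher, 1 lower and 1 not passing, with a list median of 2.30. *Hbegf* averaged 2065 ± 746 CPM against 100.1 ± 56.2 (SD, n = 8, log2 difference 4.25, edgeR adjusted p = 3.42e-09), *Col22a1* 541 ± 125 against 28.4 ± 29.8 and *Itga6* 133 ± 45.8 against 13.2 ± 12.9. *Htra4* was closer, at 1573 ± 377 against 251 ± 134 CPM (log2 difference 2.68). *Cd55* averaged 263 ± 46.2 against 35.4 ± 23.3 CPM (log2 difference 3.10, edgeR adjusted p = 2.84e-07) and was higher in 8 of 8 libraries.

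Several receptors and enzymes separated these classes. *Gpr1*, a chemerin receptor, averaged 66.5 ± 29.8 against 0.381 ± 0.709 CPM, *Ptger3*, the prostaglandin E2 receptor EP3, 95.9 ± 37.6 against 5.62 ± 5.49, and *Aldh1a3*, which makes retinoic acid, 222 ± 68.1 against 9.20 ± 7.87. *Rgs5* and *Des*, better known from mural cells, were also higher, at 124 ± 43.6 against 8.34 ± 8.77 and 73.0 ± 53.4 against 11.0 ± 10.6 CPM. Other mural genes did not follow them. At 5000 UMIs per cell, *Acta2* was detected in 2.70% of lining fibroblasts and 18.4% of *Prg4*+-only cells, and *Tagln* in 12.1% and 12.6%. All 6 EGF family genes tested were higher (list median 2.08). No gene of the fibrillar matrix was higher and 15 of 18 were lower (list median -1.92), with *Lum* at 133 ± 85.3 against 2562 ± 572 CPM and *Col1a1* at 1602 ± 346 against 6285 ± 2903 CPM. Of 15 glycolysis genes, 5 were lower and none higher. *Spp1*, osteopontin, had a log2 difference of -2.06 (edgeR adjusted p = 0.00169).

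**Figure D3:**
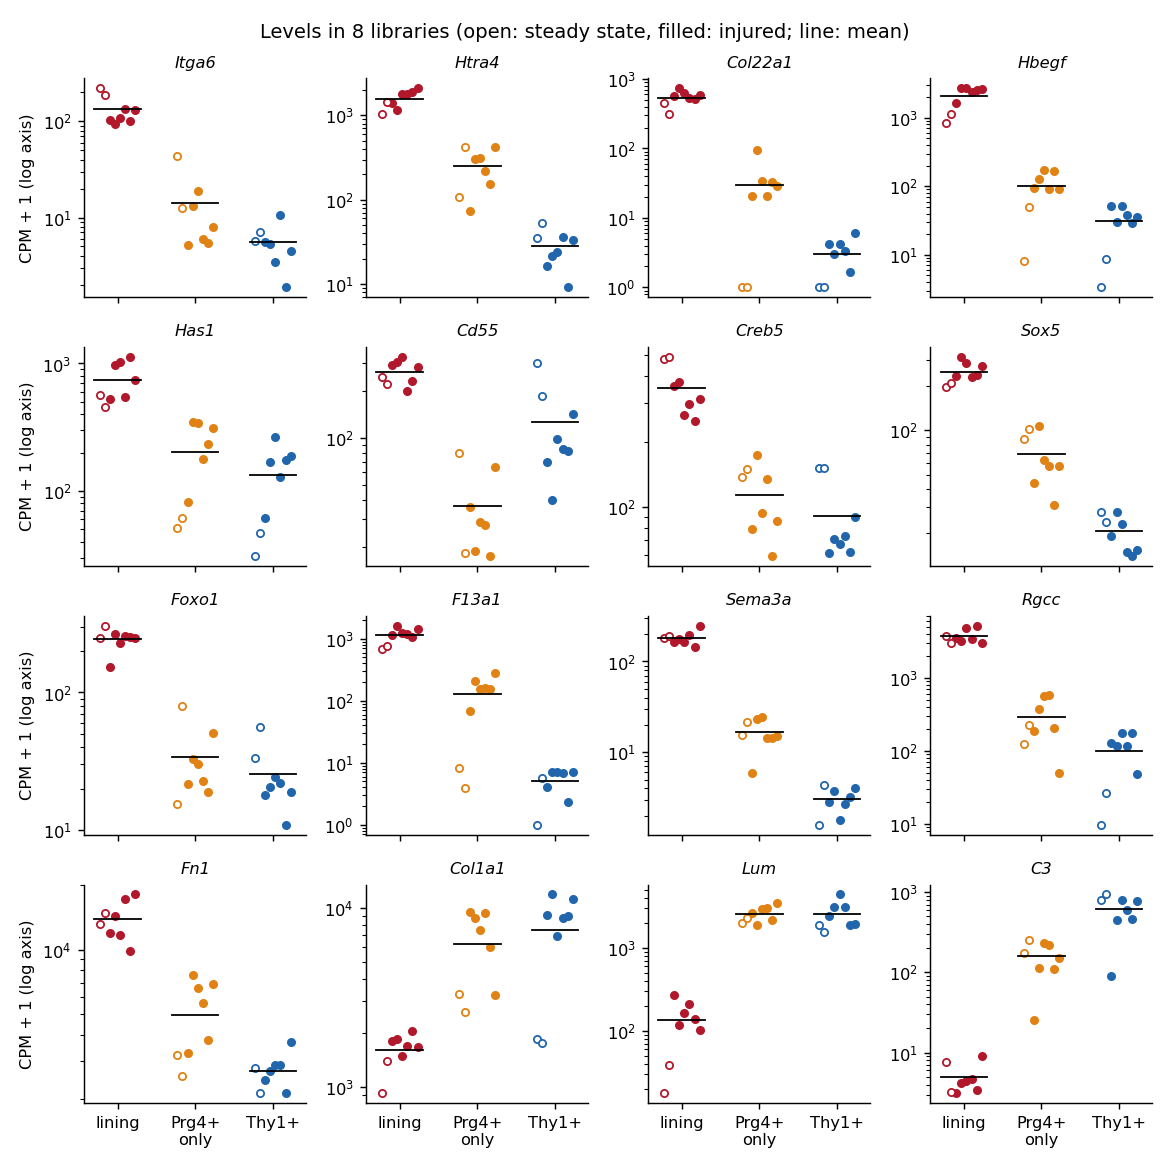
CPM + 1 on a log axis (y axis) of 16 genes in lining fibroblasts, *Prg4*+-only cells and Thy1+ fibroblasts (x axis); each point is 1 of 8 libraries, open for steady state and filled for injured, and the line is the mean. The lining points of *Col22a1*, *Htra4* and *Hbegf* all lie above those of the other 2 classes, and those of *Lum* and *C3* all lie below.

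Cells at the edge of the gate had intermediate levels, given here for pooled cells without a test because the gate genes order them. Among cells that met every other condition, *Hbegf* was 133 CPM in the 263 cells with no UMI of *Clic5* and *Tspan15*, 259.7 CPM in the 81 cells with 1 UMI, 635 CPM in the 61 lining fibroblasts with 2 or 3 UMIs and 2485 CPM in the 577 with 4 or more. *Itga6* was 10.6, 43.4, 64.2 and 118 CPM in the same order, and *Col22a1* 63.0, 189, 301 and 633 CPM. *Col3a1* ran the other way, at 8865, 6723, 4526 and 2916 CPM. *Cd44*, at 230.0, 272, 293 and 297 CPM, and *Pdgfra*, at 197, 204, 202 and 155 CPM, differed less across the edge. The 38 cells left out for *Thy1* alone had 80.4 CPM of *Itga6*, 489 of *Col22a1* and 2718 of *Col1a1*, closer to the selected cells than to the 263 without *Clic5* and *Tspan15*. Their *Cd34*, a sublining marker, was 202 CPM, above the 171 CPM of those 263 cells and the 65.2 and 32.9 CPM of the selected cells with 2 or 3 and with 4 or more UMIs.

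**Figure D4:**
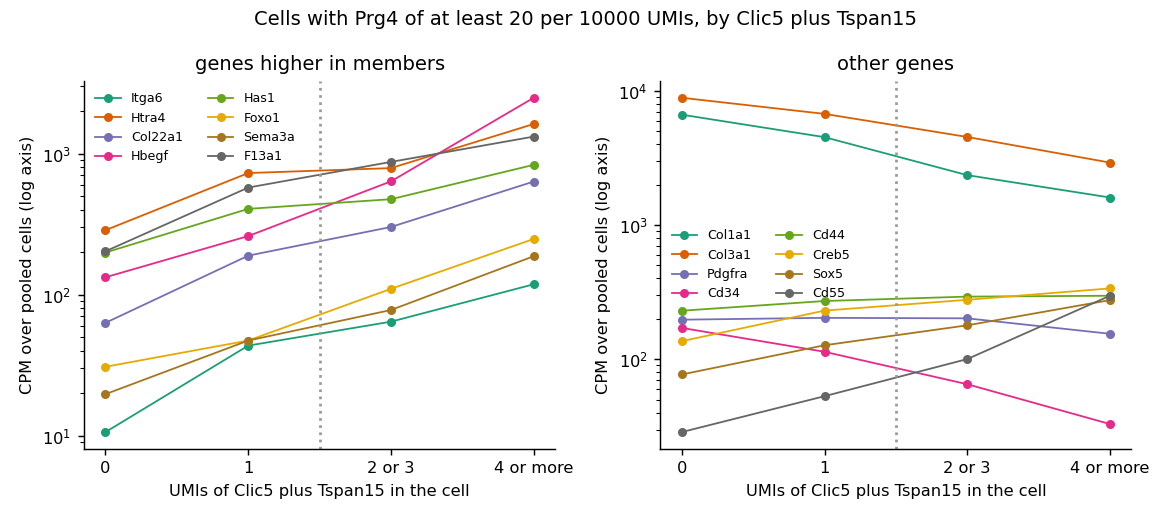
CPM over pooled cells on a log axis (y axis) against UMIs of *Clic5* plus *Tspan15* per cell (x axis), in cells with *Prg4* of at least 20 per 10000 that met the rest of the gate; cells with 2 or more are the lining fibroblasts. The left panel plots 8 genes that climb from left to right (*Itga6* from 10.6 to 118 CPM), and the right panel plots 4 further lining genes with *Col1a1*, *Col3a1*, *Pdgfra* and *Cd34*, of which *Col3a1* descends from 8865 to 2916 CPM. The dotted line is the limit of the gate.

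The response of lining fibroblasts to injury was measured in the Tom+ libraries, 4 injured against 2 in steady state. Of 10045 genes, 58 were higher (0.577%) and 137 lower (1.36%) in injured lining fibroblasts (edgeR), 1.94% in all, and 1977 had an unadjusted p below 0.05. The largest increase with firm calls was in *Tnfaip6* (chr2:52038009-52056686, plus strand), which encodes TSG-6, a hyaluronan-binding protein induced in inflammation. Lining fibroblasts held 0 and 2 *Tnfaip6* UMIs in the steady-state libraries and 1873, 3865, 1994 and 1142 in the injured ones, or 0 and 4.39 against 981, 1339, 758 and 611 CPM. Pooled over cells, 8874 against 2 UMIs gave a ratio of 361 (95% interval 100.035 to 2985, counting error only). The UMIs were spread over cells. At 5000 UMIs per cell, *Tnfaip6* was detected in 0 of 20 and 3.45% of 29 steady-state lining fibroblasts and in 59.4 to 80.3% of those in the 4 injured libraries. The fitted log2 difference was 8.50 (edgeR adjusted p = 0.000548), and the groups did not overlap.

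Of the 35 genes named in this comparison that passed, 4 passed under every alternative setting and without each library in turn, and *Tnfaip6* was one. *Wisp2*, a matricellular protein of the CCN family, measured 9.95 and 4.39 CPM in steady state and 191, 222, 226 and 296 in injured libraries (log2 difference 5.20, SE 0.40, edgeR adjusted p = 0.000548). *Nt5dc2*, a gene of the 5′-nucleotidase domain family, averaged 284 ± 50.9 (SD, n = 4) against 11.0 ± 6.17 CPM (SD, n = 2, log2 difference 4.67). *Pcolce2*, an enhancer of procollagen processing, went down from 759 and 519.8 CPM to 98.4, 60.3, 38.0 and 93.6 CPM (log2 difference -3.07, SE 0.33, edgeR adjusted p = 0.00614). In all 4 genes the injured libraries lay apart from the steady-state ones, as for 34.7% of the genes tested.

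The other calls of named genes were lost without at least 1 library. Without a steady-state library that arm holds 1 sample, which is assumed to vary like the injured ones. The total of 195 calls became 18 without Tom+ steady-state replicate 1, 24 without Tom+ steady-state replicate 2, 51, 22 and 68 without Tom+ injured replicates 2, 3 and 4, and 530 without Tom+ injured replicate 1. The sign stayed the same for 191 of 191 and 189 of 190 of these calls that were tested without steady-state replicates 1 and 2. *Hbegf* was higher in injured lining fibroblasts by 1.32 on the log2 scale (2350.3 ± 499 against 997 ± 219 CPM, edgeR adjusted p = 0.0399), but its adjusted p was 0.243 without Tom+ steady-state replicate 1 (log2 difference 1.13), 0.119 without replicate 2 (1.58), and 0.066, 0.0914 and 0.0713 without Tom+ injured replicates 2, 3 and 4. *Col3a1* was higher by 1.94 (3267 ± 812 against 898 ± 163 CPM, edgeR adjusted p = 0.0147) and reached 0.137 and 0.0827 without steady-state replicates 1 and 2, at log2 differences of 1.79 and 2.15. *Slpi*, a secreted protease inhibitor, had 0 and 1 UMI in steady state and 336, 2094, 1989 and 583 in injured libraries (log2 difference 8.56, edgeR adjusted p = 0.0185). This call was lost when either steady-state library was left out, although the library that remained held at most 1 *Slpi* UMI. The *Slpi* UMIs of the injured libraries sat in few cells. Between 30 and 80 lining fibroblasts per injured Tom+ library had any, and 1 cell held 34.3% of them in replicate 4.

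Of the 20 fibrillar matrix genes, *Lum*, *Col3a1* and *Col5a3* were higher and 17 did not pass (list median 0.67, against 0.02 for all genes). The immediate early genes *Egr1*, *Fosb* and *Jund* were lower, and the other 11 of 14 stress genes did not pass. Summed, the 14 stress genes stood at 9824 and 10945 CPM in the steady-state and 5996, 5601, 9575 and 5960 CPM in the injured lining fibroblasts. Their part in the other calls was not tested. *Thbs4* and *Tagln*, genes of tendon and contractile cells, had log2 differences of -4.74 and -3.06, yet single cells held large parts of their steady-state UMIs. In Tom+ steady-state replicate 2, 1 cell held 50.6% of the *Thbs4* UMIs and 1 cell 49.6% of the *Tagln* UMIs. In replicate 1 these shares were 69.2% and 65.3%. Both calls were lost without replicate 2, which leaves 1 steady-state sample. That sample held 345 CPM of *Thbs4* and 162 of *Tagln*, against 14.4 to 62.3 and 31.9 to 102 CPM in the injured libraries. Of the 12 lining genes outside the gate, *Hbegf* passed and 11 did not, against 1.94% of all genes. *Itga6* was 203 ± 22.9 CPM in steady state and 108 ± 17.6 in injured lining fibroblasts (log2 difference -0.82, edgeR adjusted p = 0.0629), *Col22a1* 382 ± 93.2 and 617 ± 88.7 CPM (0.78, adjusted p = 0.0867) and *Creb5* 483 ± 8.24 and 324 ± 52.6 CPM (-0.50, adjusted p = 0.175). The libraries of the 2 states did not overlap for these genes or for *Sox5* (0.47, adjusted p = 0.226), nor for 34.7% of all genes tested.

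Of the 137 genes lower after injury, 67 were pseudogenes or unnamed gene models (21 with a -ps symbol and 46 with a Gm symbol), against 1 of the 58 higher genes, while 89 -ps and 334 Gm symbols were among the 10045 genes tested. The summed level of -ps genes in lining fibroblasts was 12116 and 8260.2 CPM in the Tom+ steady-state libraries, 4088.5 in Tom+ injured replicate 1, which has the older gene list, and 1967 to 2391 in the other 3. With the gene list format as a term in the fit, 36 genes passed, 26 of them among the 195. State and processing could therefore be told apart only through Tom+ injured replicate 1.

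Thy1+ fibroblasts of the same Tom+ libraries responded differently. A class by state term, fitted with the library as a block, passed for 97 genes with a higher injured-to-steady ratio in lining fibroblasts (0.828%) and 107 with a lower one (0.913%) of 11719 tested, 1.74% in all. *Cthrc1*, a secreted protein of activated fibroblasts, was 252 ± 159 CPM in steady-state and 244 ± 156 in injured lining fibroblasts, while in Thy1+ fibroblasts it was 34.5 ± 5.97 and 2815 ± 1068 CPM (interaction -6.30 on the log2 scale, SE 0.47, edgeR adjusted p = 0.000157). *Col1a1* was 1155 ± 339 and 1696 ± 159 CPM in lining fibroblasts against 1803 ± 59.4 and 9177 ± 2026 CPM in Thy1+ fibroblasts (interaction -1.60, edgeR adjusted p = 0.00169). The steady-state lining values of *Cthrc1* were 139 and 364 CPM, and 1 cell held 48.2% of its UMIs in Tom+ steady-state replicate 2. Without that library the interaction was -5.31 (edgeR adjusted p = 0.00422). For both genes the step with injury was larger in Thy1+ fibroblasts.

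*Tnfaip6* showed the opposite pattern, with an interaction of 6.91 (edgeR adjusted p = 0.00169), because Thy1+ fibroblasts already held 183 ± 36.6 CPM in steady state and 569.6 ± 221 after injury. *Wisp2* was similar, at 196 ± 39.0 and 285 ± 73.6 CPM in Thy1+ fibroblasts (interaction 4.72). *Timp3*, a metalloprotease inhibitor, was 156 ± 41.3 and 193 ± 68.6 CPM in lining fibroblasts but 531 ± 100.4 and 71.7 ± 21.6 in Thy1+ fibroblasts (interaction 3.36, edgeR adjusted p = 0.0015). *Procr*, the endothelial protein C receptor, was 179 ± 56.6 and 345 ± 48.0 CPM against 269 ± 0.439 and 89.4 ± 18.3 (interaction 2.69). These genes were among the 9 of 52 named that passed under every alternative. The count of 204 was 28 without Tom+ steady-state replicate 2 and 78 without replicate 1. *Cd55* (interaction 2.17, edgeR adjusted p = 0.0190) reached 0.159 without either steady-state library. Mural markers moved with state in the Thy1+ class, where the 8 listed genes summed to 73.4 and 92.3 CPM in steady state and to between 672 and 1895 CPM after injury, led by *Acta2*. In lining fibroblasts the same genes summed to 534 and 1351 CPM in steady state and to between 186 and 302 CPM after injury. Endothelial markers moved with state in the Thy1+ class too, where 8 genes summed to 0.587 and 1.42 CPM in steady state and to 54.9, 23.7, 37.6 and 282 CPM after injury, led by *Egfl7* in the injured libraries, against at most 5.88 CPM in Tom+ lining fibroblasts. The part of mural and endothelial markers in the interaction was not tested.

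**Figure D5:**
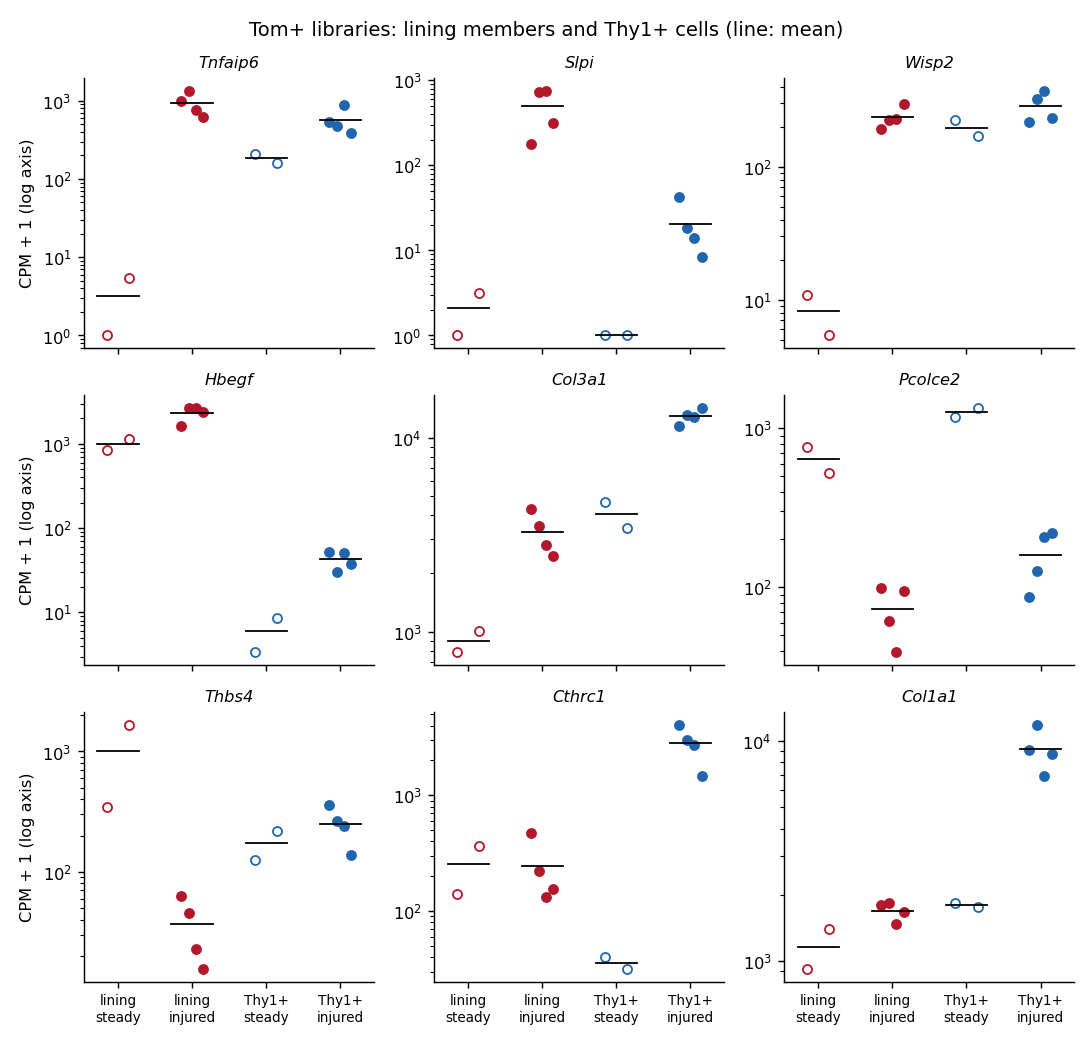
CPM + 1 on a log axis (y axis) of 9 genes in lining and Thy1+ fibroblasts of the Tom+ libraries, 2 in steady state and 4 injured (x axis); each point is 1 library and the line is the mean. *Tnfaip6* rises from 0 and 4.39 CPM to at least 611 CPM in lining fibroblasts, and *Cthrc1* rises from 34.5 to 2815 CPM on average in Thy1+ fibroblasts, while its lining means are 252 CPM in steady state, from libraries at 139 and 364 CPM with 1 cell holding 48.2% of the UMIs of the latter, and 244 CPM after injury.

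After injury, lining fibroblasts of the 2 lineages were compared in 4 Tom+ and 2 Tom-GFP+ libraries. Of 9639 genes, 1 was higher in Tom+ cells (0.0104%), the tdTomato transcript used for the sort, and 0 were lower (edgeR). At an unadjusted p below 0.05 there were 403 genes, and DESeq2 called 4. Without either Tom-GFP+ library that arm holds 1 sample, which is assumed to vary like the Tom+ ones, and edgeR then called 2 genes without replicate 1 and 0 without replicate 2. tdTomato measured 469.6, 521, 827 and 476 CPM in Tom+ and 12.0 and 3.22 CPM in Tom-GFP+ injured lining fibroblasts. A tdTomato UMI was found in 4 of 20 and 2 of 31 lining fibroblasts of the Tom-GFP+ injured libraries, against 100 of 101, 175 of 179, 142 of 144 and 110 of 111 in the Tom+ injured ones. *Hbegf* was 2534 and 2588 CPM in Tom-GFP+ lining fibroblasts, inside the Tom+ range of 1628 to 2685 CPM. *Tnfaip6*, at 1099.6 and 673 CPM, was also inside the Tom+ range of 611 to 1339 CPM. Values of the 2 lineages did not overlap for 16.7% of genes. The study calls the Tom-GFP+ mice matched, and no source used here says whether both lineages were sorted from the same animals. With the replicate number as a block, which pairs the libraries only if the numbers mark shared animals, 134 genes passed, 74 higher and 60 lower in Tom+ cells. *Htra4* was among them (log2 difference -0.64, edgeR adjusted p = 0.0482), with 1407, 1145, 1786 and 1813 CPM in Tom+ and 1879 and 2092 CPM in Tom-GFP+ cells. The Tom-GFP+ libraries held 20 and 31 lining fibroblasts, and the missing calls do not show that the lineages are alike.

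Transcripts of dividing cells were counted in lining fibroblasts with and without thinning, which lowers detection. With cells thinned to 5000 UMIs, at least 2 of 6 cell cycle genes were detected in 0 of 20, 1 of 29 and 0 of 2 steady-state lining fibroblasts, and in 4 of 101, 12 of 178, 2 of 141 and 3 of 108 in the injured Tom+ libraries. In the injured Tom-GFP+ libraries these were 1 of 20 and 1 of 30. Without thinning the counts were 0 of 20, 1 of 30 and 0 of 2 in steady state, 12 of 101, 16 of 179, 7 of 144 and 4 of 111 in Tom+ injured and 2 of 20 and 2 of 31 in Tom-GFP+ injured libraries. These shares were not tested. Tendon markers summed to 1432 and 3038 CPM in Tom+ steady-state and 309.5 to 681 CPM in Tom+ injured lining fibroblasts, led by *Egr1*, also an immediate early gene, in every library but Tom+ steady-state replicate 2, where *Thbs4* led. Cartilage markers summed to 29.8 and 412 CPM in Tom+ steady-state lining fibroblasts, the latter led by *Comp*, and to 52.4 to 167 CPM in Tom+ injured ones.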

How the data were processed

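Per the labels, cells were sorted, captured with the 10x Genomics Single Cell 5′ kit and sequenced on a NextSeq 500, and the submitters' processing notes name Cell Ranger and GRCm38.p6. The headers of 5 matrices give Cell Ranger 3.0.2. The deposited files hold raw UMI counts per gene and barcode, one matrix per library, with no normalization by the authors. Symbols came from the deposited gene lists. Positions came from GENCODE vM21, in which 54409 of 54532 Ensembl genes were found.

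Barcodes were filtered and gated as the report states. UMI counts were summed per library and class (at least 10 cells) and tested with edgeR 4.0.16 in R 4.3.3 (filterByExpr, TMM, quasi-likelihood F test, Benjamini-Hochberg, threshold 0.05) without the 9 gate genes. CPM values are summed counts scaled to a class total of 1000000, and means are given ± SD over libraries. Shares were compared by exact permutation over libraries. Intervals cover counting error only. Python 3.11.15, scanpy 1.11.5 and scipy 1.17.1 were used.

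Named genes were, in each list, up to 4 passing genes with the largest change in the same direction in every library or without overlap, 10 lining genes whatever their result, and over all genes the 15 highest and 10 lowest passing ones with at least 50 CPM in the higher class. Genes outside this rule that illustrate a list, such as *Egfr*, *Hk1*, *Manf*, *Ugdh*, *Pdgfra*, *Col1a1*, *Fn1* and *Loxl2*, were chosen after their values were seen. The cells and lists were chosen with earlier results of these data known. Alternatives were DESeq2 1.42.0, DESeq2 size factors, no filter on low counts, stricter cell filters and gate, removal of the 5% of cells with the highest Scrublet doublet scores, thinning to 5000 UMIs, a replicate block or none, the gene list format as a term, and leaving out each library. No doublets were removed in the main analysis. The study gives as many mice as libraries in each group, and calls the Tom-GFP+ mice matched without saying in what, so the spread is between animals within a lineage, and the permutation test between lineages treats libraries as independent. Same-numbered libraries did not deviate together (correlations -0.03 to 0.10 in the injury and lineage comparisons).

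The test procedure was also tested on simulated counts with known changes.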

Additional observations from a re-analysis of the deposited data

Results flagged for a closer look

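Among the 4 Tom+ injured libraries, 8 of 103 values tested had 1 library far from the other 3, where chance alone gives about 1 in 20. The 103 values were gene levels and shares of cells in the gate, and all 8 flagged ones were gene levels. The gene *F13a1* was 1619 CPM in lining fibroblasts of replicate 2, with the others at 1159.5 to 1228. *Rab37* was 81.3 CPM in replicate 4 and higher in the others. *Gchfr* was 212 CPM in replicate 3, *Cfb* 14.8 CPM in replicate 3, and tdTom 827 CPM in replicate 3. *Has2* was 6.58 CPM in replicate 2, *Jund* 577 CPM in replicate 1, and *Ccl11* 0.535 CPM in replicate 4, which is 1 UMI, with none in the others.

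The injured-to-steady ratio differed between lining and Thy1+ fibroblasts of the Tom+ libraries for 204 genes by the class by state term (edgeR), described above with *Cthrc1*, *Col1a1*, *Tnfaip6* and *Timp3*.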

How the results depend on the processing

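The share difference between injured and steady-state libraries was 9.72 points with cells thinned to 5000 UMIs (exact permutation p = 0.0667) and 8.94 to 14.4 points when each library was left out. The lineage difference was 7.13 to 12.6 points when each library was left out. Fewer libraries allow fewer relabellings, which raises the smallest p. Against other kept cells 3970 genes passed, 2193 after thinning and 3397 to 4021 without each library. Against *Prg4*+-only cells 1642 passed, 2692 with no filter on low counts and 1327 to 1695 without each library. Against Thy1+ fibroblasts 3802 passed, 1954 after thinning and 3247 to 3867 without each library. No named gene that passed in these 3 comparisons lost its call when a library was left out. Under all alternatives 92 of 95, 76 of 78 and 84 of 88 kept it. The calls of *Cd44* in each, *Spp1* and tdTom against other kept cells, *Tgfb1* against *Prg4*+-only cells, and *Hk1*, *Lyz2* and tdTom against Thy1+ fibroblasts were lost without the library as a replicate block. Those of tdTom against other kept cells, *Tgfb1* and *Hk1* were also lost after thinning.

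Of the 195 injury calls, the count was 1117 with no filter, 410 with DESeq2, 115 after thinning, 36 with the gene list format as a term, and 18 to 530 without each library. The class by state term gave 637 genes with no filter, 78 after thinning and 28 to 296 without each library. After thinning its sign turned for *Cdk1* (1.93), *Acta2* (0.60), *Cox4i2* (2.02) and *Fabp5* (0.80). The lineage comparison gave 77 genes with no filter, 4 with DESeq2, 2 after thinning and 0 to 2 without each library. The causes were not tested. With a replicate block the injury count was 57, of which 40 were among the 195, and the lineage count 134. Without the library as a replicate block the class by state count was 31. No source used here says whether the lineages share animals or whether the numbers mark them.

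In the lineage comparison, values that did not pass changed sign when a library was left out. The ranges of the log2 difference were -0.050 to 0.34 for *Cd55*, -0.28 to 0.15 for *Itga6*, -0.095 to 0.30 for *Cd44*, -0.24 to 0.0097 for *Foxo1*, -0.064 to 0.21 for *Sox5*, -0.49 to 0.019 for *Has1* and -0.20 to 0.030 for *Hbegf*. The Tom-GFP+ injured libraries held 20 and 31 lining fibroblasts, and 2 Tom+ libraries were in steady state.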

Other observations

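Among gene groups not yet described, lining fibroblasts had 2 of 15 glycolysis genes higher and 1 lower than Thy1+ fibroblasts, and 12 did not pass, with *Hk1*, whose call was lost after thinning (edgeR adjusted p = 0.279), at 26.9 ± 12.7 against 16.4 ± 3.72 CPM. Of 16 genes of matrix remodelling tested, *Fn1* was higher and 12 were lower, among them *Lrrc15*, a marker of activated fibroblasts, at 1.76 ± 2.19 against 90.5 ± 57.6 CPM. *S100b*, a calcium-binding protein best known from glia and cartilage, was higher in lining fibroblasts at 96.5 ± 70.6 against 11.7 ± 7.53 CPM. Of 7 tendon markers 6 were tested, 5 were lower and *Egr1* did not pass (39.4% of all genes tested passed), with *Tnmd* at 0.887 ± 1.02 against 67.3 ± 54.9 CPM. Summed, the 7 genes were higher in lining than in Thy1+ fibroblasts of both Tom+ steady-state libraries, at 1432 against 1054 and 3038 against 1518 CPM, and lower in the 6 injured libraries. Of 7 adipocyte markers 2 were tested, *Fabp4* and *Lpl*, and both were lower, *Fabp4* at 1.07 ± 1.58 against 91.8 ± 112 CPM.

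A further 10 barcodes that failed the cell filter met the lining gate and were not used. Mitochondrial genes, ribosomal protein genes and unnamed gene models were left out of the ranking by abundance. In it, the genes after *Prg4* were *S100a6*, a calcium-binding protein, at a mean of 15455 CPM over 9 libraries, and *Fn1* at 14718 CPM.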
